A study of Mus musculus with 10 samples.

Results

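The 49 genes described here encode the machinery of mitosis. They comprise the G2/M kinases and cyclins, the spindle checkpoint, the centromere and kinetochore, the chromosomal passenger complex, spindle motors and assembly factors, cytokinesis proteins and the condensin complex with its chromosomal partners. They were taken by symbol from a fixed list of named genes, which was chosen with earlier results of these data known. All 49 were found among the 43629 gene identifiers of the count tables. RNA-seq counts came from C57BL/6 mouse embryos at E14.5, from dorsal telencephalon, where the cerebral cortex arises. The 5 controls carried no Cre and 1 floxed Dot1l allele (Dot1l f/+). The 5 Dot1l-cKO samples carried 1 Cre allele and 2 floxed Dot1l alleles (Dot1l f/f). Every sample thus held at least 1 floxed allele, and Cre came only with the Dot1l-cKO genotype, so Dot1l loss and the presence of Cre cannot be told apart.

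In dividing cells, CDK1 bound to cyclin B drives entry into mitosis, WEE1 holds this kinase back by phosphorylation, and CDC25 phosphatases release it. Kinetochores then bind spindle microtubules, the checkpoint delays anaphase until they are attached, and condensin compacts the chromosomes that the cytokinesis machinery finally parts into daughter cells. In the E14.5 cortex, radial glia divide at the ventricle and intermediate progenitors in the subventricular zone, and transcripts of mitosis genes peak in G2 and M phase of these cells. In bulk tissue, fewer dividing cells and less RNA per dividing cell cannot be told apart.

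Total counts ranged from 54202349 to 66556034 per sample, and no member had fewer than 309 counts in any sample. All 49 members passed the filter on low counts, with 17039 genes tested in all. Replicates 2 and 3 of both groups had a mitochondrial rRNA share of 0.0471 to 0.492%, against 5.79 to 10.9% in the other 6 samples, and their names in a deposited table open with a shared number, where those of replicates 1, 4 and 5 each open with another. No source used here says what this number is. Counts of Dot1l, the targeted gene, were 31.4, 41.5, 36.6, 40.6 and 36.3 CPM (counts per 1e+06 mapped to genes, after TMM scaling) in the controls and 42.3, 20.1, 39.6, 43.4 and 51.7 CPM in the Dot1l-cKO samples, each in the order of replicates 1 to 5 as in all such series of values here. The log2 fold change of Dot1l, Dot1l-cKO minus control, was 0.081 (adjusted p = 0.864), so the gene-level counts do not check the genotype, and exon-level reads were not analysed here. Markers of dorsal progenitors and neurons were present throughout, with Eomes of intermediate progenitors at 222 to 336 CPM in controls and 234 to 306 CPM in Dot1l-cKO.

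The mitosis genes were mostly lower in Dot1l-cKO samples, by a small amount that single genes seldom resolved. The log2 fold change was below 0 in 48 of 49 members, against 51.2% of all genes tested, and its median over the members was −0.23, against −0.0056 over all genes tested. A log2 value of −0.23 is a decrease of 14.9%. At an adjusted p under 0.05 in the edgeR quasi-likelihood test, 2 members were called decreased, Ncapd2 and Wee1, or 4.08% of the members against a background of 1.44% of all genes. None was called increased by edgeR, against a background of 5.67%. Pttg1 alone was increased at an unadjusted p under 0.05, against 13.3% of all genes, and DESeq2 called it increased. At an unadjusted p under 0.05, 14 members were decreased, which is 28.6% of them against 7.3% of all genes. The 95% confidence interval lay below 0 in those 14 members and above 0 in 1, and contained 0 in 34. DESeq2 called Ncapd2, Wee1 and Foxm1 decreased, 3 of 49 members beside 705 of 17039 genes. It called 2004 genes in both directions together. The members moved together across samples, so the 49 values are not independent observations.

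**Figure D1:**
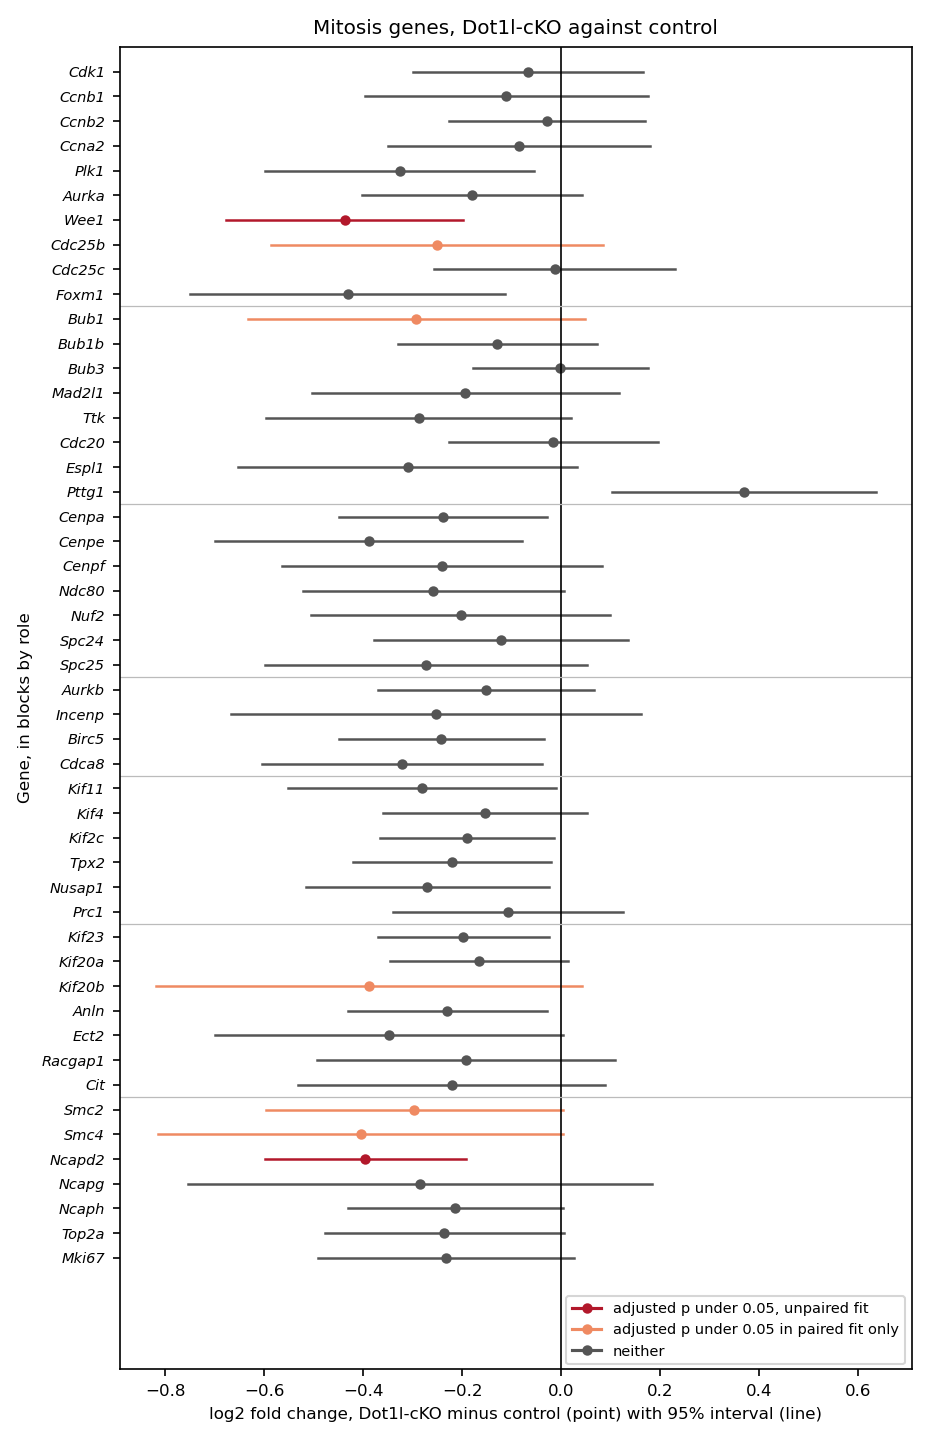
Log2 fold change (Dot1l-cKO minus control) on the x axis for each of the 49 genes on the y axis, in blocks by role, with the 95% confidence interval of the unpaired edgeR fit as a line (5 samples per group). Red marks the 2 genes called in that fit, orange the 5 called only when replicate number was a block, and grey the rest. All points but that of Pttg1 lie left of 0, from −0.44 to −0.0013.

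Sample by sample, the members moved largely as a block. The mean deviation of their log2 CPM from the control mean was 0.11, 0.16, 0.12, −0.031 and −0.35 in the controls. Among Dot1l-cKO samples the deviations were −0.29, −0.081, −0.11, −0.27 and −0.30, with a mean of −0.21 ± 0.11 (SD, n = 5) beside a control SD of 0.21. The groups overlapped through control replicate 5, which lay below all Dot1l-cKO samples and was the lowest control in 46 of 49 members. The other 4 controls lay above every Dot1l-cKO sample. Without control replicate 5, edgeR called 12 members decreased, against a background of 1.99%, namely Ncapd2, Wee1, Plk1, Foxm1, Cenpa, Cenpe, Birc5, Cdca8, Tpx2, Nusap1, Kif23 and Anln. As that sample was the lowest control in most members, its removal by itself raises the control mean. Each other fit with 1 sample left out called 0 or 1 member decreased. With both samples numbered 5 left out, a choice made after the data were seen, 10 members were called against a background of 1.59%, and the median log2 fold change was −0.30.

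**Figure D2:**
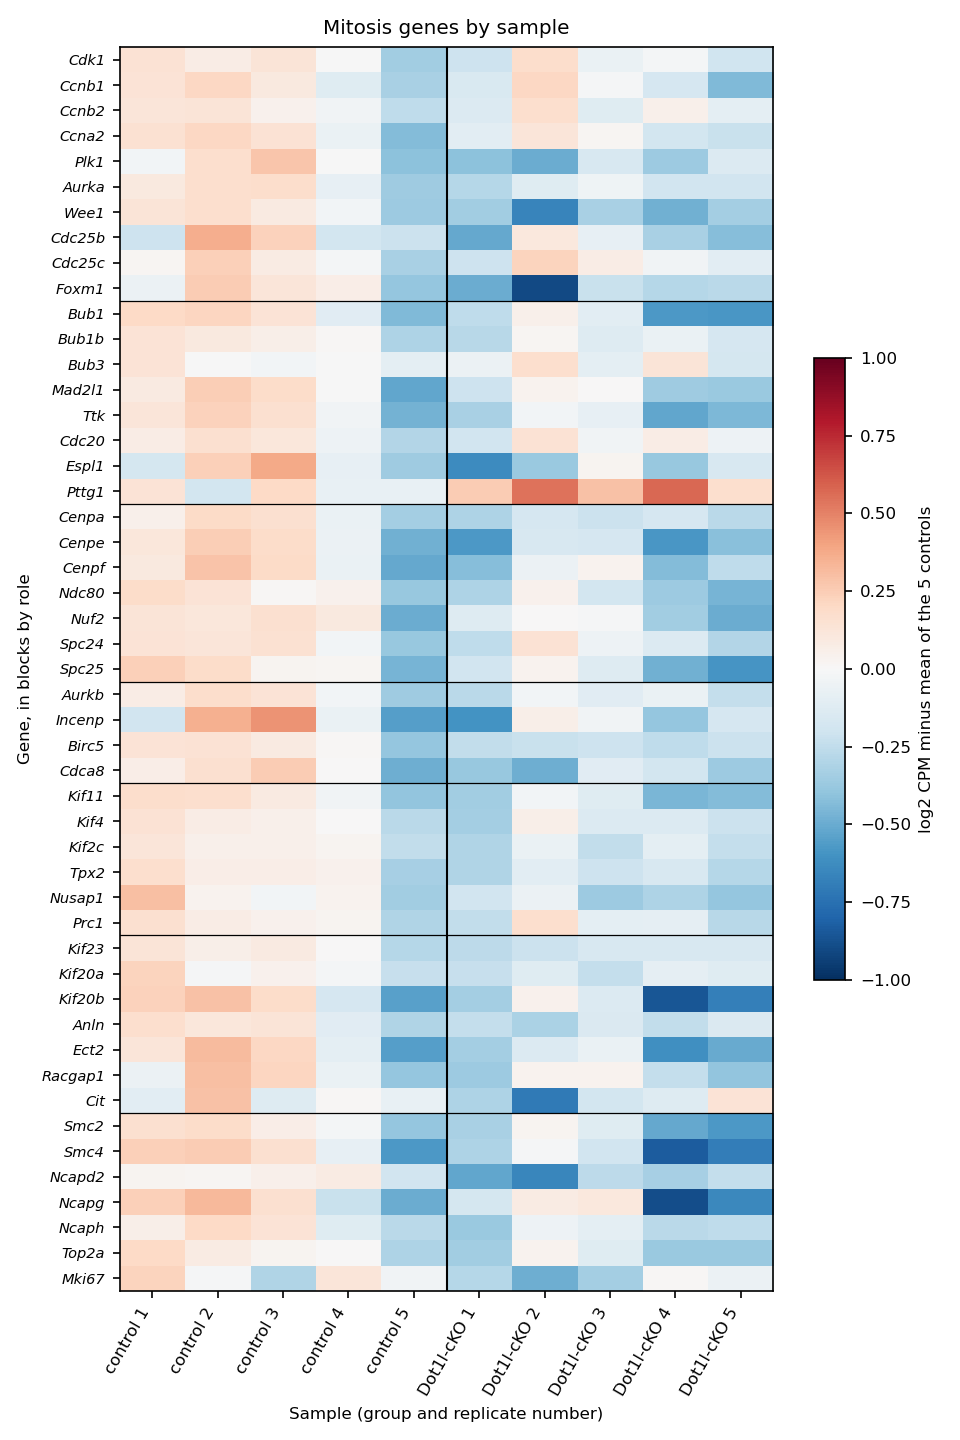
Log2 CPM of each of the 49 genes (y axis, in blocks by role) in each of the 10 samples (x axis), as the difference from the mean of the 5 controls, with blue for lower and red for higher values. Control replicate 5 is blue in most rows like the Dot1l-cKO samples, and Pttg1 is red in all 5 Dot1l-cKO samples.

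The deviations of same-numbered samples correlated at over 0.1 in all 5 pairs, although the best match of a sample was its own number for 2 of 5 numbers, and the groups were therefore also compared within pairs. Dot1l-cKO was lower than the control of the same number in all 5 pairs for 15 members, or 30.6% of them against 11.6% of all genes tested. It was lower in 4 pairs for 27 members, in 3 for 5, in 2 for Ccnb2 and in no pair for Pttg1. With the replicate number as a block, 6 members were called decreased, against a background of 2.91%, namely Cdc25b, Bub1, Kif20b, Smc2, Smc4 and Ncapd2, and only Ncapd2 was called in both fits. With the opening number of the names as the block, which differs from the replicate number only in joining replicates 2 and 3, 9 members were called decreased against a background of 3.5%. They were the same 6 with Wee1, Ect2 (adjusted p = 0.0383) and Cenpe (adjusted p = 0.0448). Within replicates 2 and 3 the median log2 fold change of the members was −0.20, with 45 of 49 below 0, and within the other samples it was −0.19, with 47 below 0. Neither of these smaller fits called a member at an adjusted p under 0.05 in edgeR, while 15 and 11 members respectively had a log2 fold change below 0 at an unadjusted p under 0.05, against 5.71% and 6.25% of all genes tested in those fits. No values were computed there with DESeq2. Non-overlap between the groups was rare. Ncapd2 was the only member in which all Dot1l-cKO samples lay below all controls, against 2.17% of all genes.

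Short motifs recurred in the promoters of the members. Many mitosis genes are repressed outside G2 and M phase through the cell cycle genes homology region (CHR) and carry CCAAT boxes, which bind NF-Y. RefSeq promoter windows on GRCm38.p6, 250 bases before to 50 bases after the transcription start, were matched for 39 of 49 members by symbol, and the others were Kif20a, Spc24, Aurkb, Ccna2, Wee1, Foxm1, Tpx2, Incenp, Cdc25c and Smc4. Letters of a CHR (TTTGAA or TTCGAA, either strand) stood in the window of 30 of these 39 members (76.9%), against 21.7% of 27025 genes with a window. From 50 bases before the start onward, 27 members (69.2%) held a CHR, against 6.12% of all genes. The letters CCAAT, on either strand, were in 28 members (71.8%), against 41.1%, and at least 2 copies in 17 members (43.6%), against 13.3%. Both motifs stood in 26 members (66.7%), against 8.61% of all genes. Matches of the motifs were counted separately and may overlap. A match is a description and not a site that was measured. The windows below are those of Ncapd2, called in both fits, of Kif20b, called in the paired fit, of Cdc20, whose log2 fold change was near 0, and of Pttg1, the 1 member that was higher in Dot1l-cKO. They lie at chr6:125191537-125191836 on the minus strand, chr19:34922108-34922407 on the plus strand, chr4:118437294-118437593 on the minus strand and chr11:43425932-43426231 on the minus strand, and capitals mark CHR and CCAAT letters on either strand.
Ncapd2: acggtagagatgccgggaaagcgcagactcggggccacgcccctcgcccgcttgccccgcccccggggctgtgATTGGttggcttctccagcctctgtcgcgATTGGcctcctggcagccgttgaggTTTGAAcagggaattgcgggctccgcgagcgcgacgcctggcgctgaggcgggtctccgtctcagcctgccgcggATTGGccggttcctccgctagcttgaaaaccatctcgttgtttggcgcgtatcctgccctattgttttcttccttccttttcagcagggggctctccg
Kif20b: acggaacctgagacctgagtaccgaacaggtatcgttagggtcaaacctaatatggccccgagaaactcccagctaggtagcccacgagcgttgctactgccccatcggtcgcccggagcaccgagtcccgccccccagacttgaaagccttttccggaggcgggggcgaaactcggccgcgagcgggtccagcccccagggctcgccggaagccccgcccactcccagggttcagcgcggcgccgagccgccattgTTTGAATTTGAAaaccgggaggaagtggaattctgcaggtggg
Cdc20: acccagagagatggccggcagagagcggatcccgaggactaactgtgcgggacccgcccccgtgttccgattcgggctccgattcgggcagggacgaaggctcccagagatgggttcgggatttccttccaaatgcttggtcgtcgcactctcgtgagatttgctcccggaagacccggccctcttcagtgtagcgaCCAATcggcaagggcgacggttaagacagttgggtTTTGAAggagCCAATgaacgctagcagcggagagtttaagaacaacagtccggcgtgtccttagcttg
Pttg1: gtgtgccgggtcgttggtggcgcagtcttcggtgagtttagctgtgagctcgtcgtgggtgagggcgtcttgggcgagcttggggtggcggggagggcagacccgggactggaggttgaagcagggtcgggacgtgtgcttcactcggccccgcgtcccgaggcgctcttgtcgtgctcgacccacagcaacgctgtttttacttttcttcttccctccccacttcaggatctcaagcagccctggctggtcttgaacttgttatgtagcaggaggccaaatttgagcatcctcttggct
In Ncapd2 the CHR letters began 123 bases before the start, with CCAAT boxes at −177, −148 and −48. In Kif20b a pair of CHR matches followed each other directly at 8 and 14, with no CCAAT. In Cdc20 a CHR at −18 stood between CCAAT boxes at −53 and −8. Pttg1 held neither motif in this window. The log2 fold changes of these 4 genes were −0.40, −0.39, −0.015 and 0.37, in the order shown. The Pttg1 window lay wholly inside the gene as annotated (chr11:43420250-43426251), so bases before that annotated start were not searched. Neither motif was found for Birc5 (−0.24), Mad2l1 (−0.19), Ncaph (−0.21), Nuf2 (−0.20) and Nusap1 (−0.27), all with log2 fold changes below 0. The same held for Cit (−0.22), whose window also lay inside its gene. The Mad2l1 window ended at chr6:66535270, before the annotated start of its gene at 66535390, so bases around that annotated start were not searched. No relation of motifs to direction was tested.

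**Figure D3:**
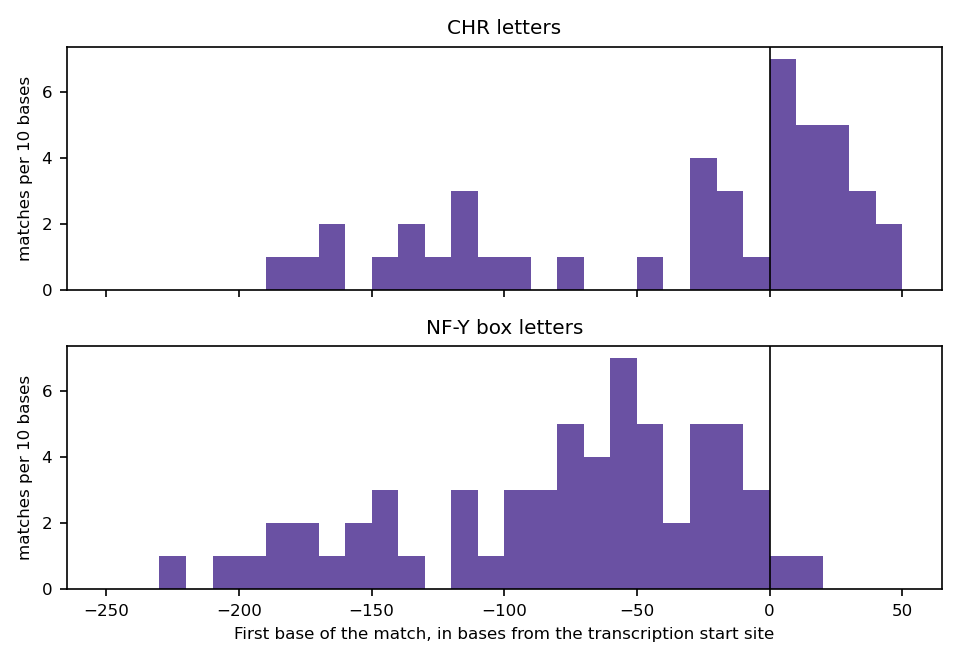
Number of matches per 10 bases (y axis) to CHR letters (upper panel) and NF-Y box letters (lower panel) along 42 promoter windows of 39 mitosis genes, by distance of the first base of the match from the transcription start site in bases (x axis, 0 marked by a line). CHR matches are most frequent just after the start, and NF-Y box matches lie mostly before it.

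With all samples, condensin and its chromosomal partners were the role group with the lowest median log2 fold change, −0.29. In this group 6 of 7 members were lower in all 5 pairs. Its median was also the lowest within replicates 1, 4 and 5, at −0.35. Within replicates 2 and 3 it was −0.22, above the chromosomal passenger complex (−0.34) and cytokinesis (−0.26). Those groups were again lower with both samples numbered 5 left out, at −0.362 and −0.325 against −0.317 for condensin. Condensin I contains SMC2 and SMC4, the ATPase core, with NCAPD2, NCAPG and NCAPH as its other subunits. Ncapd2 (chr6:125168007-125191701, minus strand, GRCm38) measured 304, 302, 308, 315 and 261 CPM in controls. Its Dot1l-cKO values were 207, 189, 248, 236 and 252 CPM. Its lowest control, replicate 5, was above its highest Dot1l-cKO sample, also replicate 5, by a narrow margin. Its log2 fold change was −0.40 (SE 0.092, adjusted p = 0.0255), −0.46 within replicates 2 and 3, and −0.34 within the other samples. Ncapd2 kept an adjusted p under 0.05 when 1 sample was left out in 6 of 10 cases. It was 0.0678 without Dot1l-cKO replicate 1 and 0.0653, 0.0597 and 0.0687 without control replicates 1, 2 and 4. Scarna10 and Gm28967 share 3.78% of its exon length on the same strand.

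Smc4 (control 287, 291, 272, 229.6 and 164 CPM, Dot1l-cKO 197, 241, 214, 137 and 150.5 CPM) overlapped between groups through control replicates 4 and 5. Smc4 had a log2 fold change of −0.41 (SE 0.19), with an adjusted p of 0.248 in the unpaired fit and 0.0366 with the replicate block. Smc2 measured 204, 207, 191, 179.8 and 139.8 CPM in controls and 146, 186, 168, 128 and 123 CPM in Dot1l-cKO. Both core subunits were thus lower in each pair, with replicates 4 and 5 of Dot1l-cKO the lowest of all 10 samples. Smc2 had a log2 fold change of −0.30 (SE 0.14, adjusted p = 0.25 unpaired and 0.0458 with the block). Ncapg (−0.29, block adjusted p = 0.0771) and Ncaph (−0.21, 0.106) did not pass in either fit.

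Top2a, the topoisomerase that untangles sister chromatids, and Mki67, the coat protein of mitotic chromosomes that is widely used to mark dividing cells, stand beside condensin on mitotic chromosomes. Top2a measured 935, 865, 830.1, 820.3 and 659 CPM in controls and 643, 835, 749.9, 630.5 and 633 CPM in Dot1l-cKO, with a log2 fold change of −0.24 (95% interval −0.48 to 0.0066, adjusted p = 0.257). Mki67 measured 595, 506, 415, 556 and 499 CPM in controls and 418, 363, 403, 515 and 489.7 CPM in Dot1l-cKO, with a log2 fold change of −0.23 (95% interval −0.49 to 0.025, adjusted p = 0.299). Each was lower in all 5 pairs without passing the test. Mki67 was 1 of 3 members, with Cit and Pttg1, whose lowest control was not replicate 5. Per kilobase of exon, the control levels of Top2a (91.2 CPM per kb), Cdc20 (64.2), Mki67 (51.1), Ccna2 (49.1) and Smc4 (47.7) were the highest of the members. Cit (2.18), Pttg1 (3.10) and Espl1 (4.85 CPM per kb) were the lowest.

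**Figure D4:**
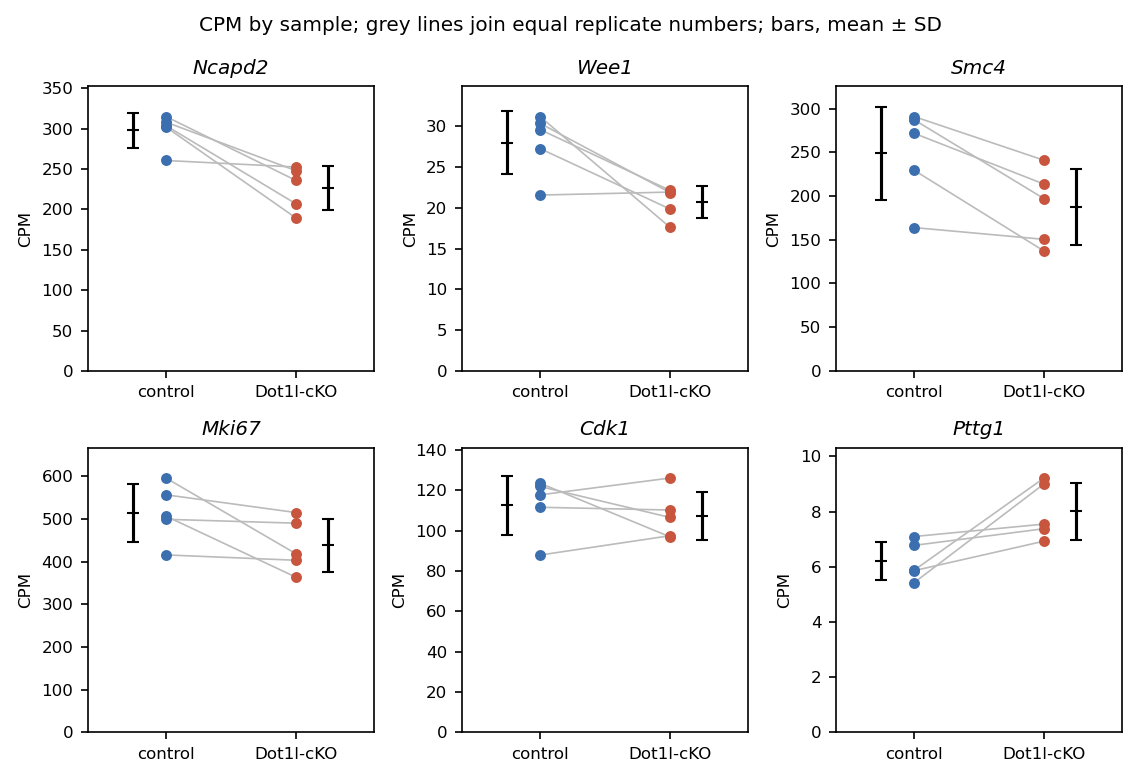
CPM (y axis, from 0) of 6 of the genes in the 5 control (blue) and 5 Dot1l-cKO (red) samples, with grey lines joining samples of the same replicate number and black bars for the mean ± SD (n = 5). Ncapd2 does not overlap between groups, Smc4 and Mki67 are lower in Dot1l-cKO along every line but overlap, Cdk1 shows no common direction, and Pttg1 is higher along every line.

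Among the mitotic kinases and cyclins, which set the timing of entry into mitosis, all 10 log2 fold changes were below 0 with a median of −0.15. Wee1 (chr7:110122046-110143286, plus strand), the kinase that restrains CDK1, measured 30.4, 31.2, 29.6, 27.3 and 21.6 CPM in controls and 21.9, 17.6, 22.1, 19.8 and 21.9 CPM in Dot1l-cKO. Controls 1 to 4 all exceeded every Dot1l-cKO sample, and control replicate 5 lay among them. For Wee1 the log2 fold change was −0.44 (SE 0.11, adjusted p = 0.0345), −0.59 within replicates 2 and 3, and −0.32 within the other samples. With the replicate block the adjusted p was 0.0554. Wee1 kept its call in 1 of 10 cases with a sample left out, namely without control replicate 5 (adjusted p = 0.00633). Its adjusted p was 0.0627, 0.0658, 0.0552, 0.084 and 0.0504 without Dot1l-cKO replicates 1 to 5 in turn, and 0.0932, 0.0878, 0.0614 and 0.0693 without control replicates 1 to 4.

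Cdc25b, a phosphatase that activates CDK1, measured 30.7, 45.6, 41.7, 31.3 and 30.6 CPM in controls and 24.8, 38.2, 33.5, 28.2 and 26.4 CPM in Dot1l-cKO. Its values followed the replicate number more than the genotype, with replicates 2 and 3 highest in both groups, and each pair was lower in Dot1l-cKO. Cdc25b had a log2 fold change of −0.25 (SE 0.15), with an adjusted p of 0.403 unpaired and 0.0355 with the block. Foxm1, the transcription factor that activates many G2/M genes, measured 48.0, 59.6, 54.5, 52.4 and 38.2 CPM in controls and 35.4, 26.7, 43.0, 41.0 and 41.4 CPM in Dot1l-cKO. Its log2 fold change of −0.43 (SE 0.15) was close in size to that of Wee1 but did not pass in edgeR (adjusted p = 0.109), while DESeq2 gave an adjusted p of 0.0367. Tex52 shares 2.5% of its exon length on the same strand.

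Plk1, a kinase of mitotic entry and spindle assembly, measured 43.8, 50.2, 53.9, 44.4 and 33.5 CPM in controls and 33.5, 31.6, 39.9, 34.6 and 40.6 CPM in Dot1l-cKO. Its log2 fold change was −0.33 (95% interval −0.60 to −0.054, adjusted p = 0.159). The adjusted p was 0.0312 without control replicate 5 and up to 0.309 with another sample left out. CDK1 and its cyclins showed small differences. Log2 fold changes were −0.067 for Cdk1, −0.11 for Ccnb1, −0.029 for Ccnb2 and −0.086 for Ccna2, each with an interval that contained 0. For Cdk1 the 95% interval ran from −0.30 to 0.17, a range that includes the median of the members. Aurka, a spindle pole kinase, had a log2 fold change of −0.18 (adjusted p = 0.36). Cdc25c measured 32.6, 38.2, 34.2, 31.9 and 25.8 CPM in controls and 28.0, 37.7, 34.0, 31.5 and 29.9 CPM in Dot1l-cKO, with a log2 fold change of −0.013 (95% interval −0.26 to 0.23). Ccnb1 and Ccnb2 have annotated pseudogene copies (Ccnb1-ps and Ccnb2-ps) that could have split their reads, so their values are less certain. Copies were searched only by the gene symbol with the ending -ps, so copies of any member under other names were not looked for.

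The spindle checkpoint and anaphase genes held the smallest difference, that of Bub3, and the only positive log2 fold change. None of the 8 was called in the unpaired edgeR fit, and none was decreased at an unadjusted p under 0.05. Bub1, a checkpoint kinase at kinetochores, measured 89.5, 90.5, 85.4, 72.0 and 57.2 CPM in controls and 65.3, 80.4, 72.4, 52.2 and 51.9 CPM in Dot1l-cKO. Dot1l-cKO was lower in each pair, and the pairs differed in level by more than the genotypes did. For Bub1 the log2 fold change was −0.29 (SE 0.16), with an adjusted p of 0.325 unpaired and 0.038 with the block.

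Bub3, a partner of BUB1 and BUBR1, measured 151, 138, 135, 138 and 129 CPM in controls and 133, 155, 129, 151 and 122 CPM in Dot1l-cKO, with a log2 fold change of −0.0013 (95% interval −0.18 to 0.18). Cdc20, the activator of the anaphase-promoting complex that the checkpoint inhibits, measured 126, 133, 129, 115 and 97.0 CPM in controls and 105, 132, 117, 126 and 115 CPM in Dot1l-cKO. Cdc20 had a log2 fold change of −0.015 (95% interval −0.23 to 0.20). The intervals of Bub3 and Cdc20 contained 0, and their lower bounds of −0.18 and −0.23 still allowed a small decrease. Bub1b (−0.13), Mad2l1 (−0.19), Ttk (−0.29) and Espl1 (−0.31), the last coding for separase, had negative log2 fold changes with adjusted p between 0.279 and 0.496.

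Pttg1, which codes for securin, the inhibitor of separase, was the only member with a positive log2 fold change. It measured 6.77, 5.42, 7.10, 5.87 and 5.86 CPM in controls and 7.38, 9.0, 7.55, 9.21 and 6.93 CPM in Dot1l-cKO. Each Dot1l-cKO sample exceeded the control of its number, and 1 of them, replicate 5, was below the highest control. Pttg1 had a log2 fold change of 0.37 (SE 0.12, 95% interval 0.10 to 0.64, adjusted p = 0.101), or 29.2% higher. It was 0.42 within replicates 2 and 3 and 0.34 within the other samples. DESeq2 gave an adjusted p of 0.0377, and the replicate block in edgeR gave 0.122. Its partner in the complex, Espl1, had a log2 fold change of −0.31 (adjusted p = 0.295).

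At the centromere and kinetochore, all 7 log2 fold changes were below 0 with a median of −0.24, and none was called in the unpaired fit, while 2, Cenpa and Cenpe, were decreased at an unadjusted p under 0.05. Cenpe, the kinesin that brings chromosomes to the spindle equator, measured 161, 176, 169, 142 and 106 CPM in controls and 99.6, 133, 132, 99.4 and 111 CPM in Dot1l-cKO. Only control replicate 5 lay among the Dot1l-cKO samples. Its log2 fold change was −0.39 (SE 0.14, adjusted p = 0.139). The adjusted p was 0.0255 without control replicate 5 and up to 0.292 with another sample left out. Cenpa, the histone H3 variant that marks centromeres, had a log2 fold change of −0.24 (SE 0.096, adjusted p = 0.183), and Cenpf, a large kinetochore and nuclear matrix protein, had −0.24 (SE 0.15). The 4 subunits of the NDC80 complex, which holds microtubules at the kinetochore, had log2 fold changes of −0.26 (Ndc80), −0.20 (Nuf2), −0.12 (Spc24) and −0.27 (Spc25). Spc25 and Ndc80 were lower in all 5 pairs and Nuf2 in 4, whereas Spc24 was lower in 3.

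The chromosomal passenger complex corrects faulty attachments and later acts at the cleavage furrow. Its 4 members had log2 fold changes of −0.15 for the kinase gene Aurkb, −0.25 for the scaffold gene Incenp, −0.24 for the survivin gene Birc5 and −0.32 for the borealin gene Cdca8, with a median of −0.25. None was called in edgeR, and Birc5 and Cdca8 had unadjusted p under 0.05. Birc5 measured 51.2, 51.3, 49.4, 46.8 and 35.6 CPM in controls and 39.1, 39.8, 40.2, 39.0 and 40.0 CPM in Dot1l-cKO, where the 5 samples lay within a narrow range (SD 0.517 CPM against 6.55 CPM in controls). Control replicate 5 was the lowest of all 10 samples for Birc5. The adjusted p of Birc5 was 0.17 with all samples, 0.00797 without control replicate 5 and up to 0.336 with another sample left out.

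Spindle motors and assembly factors had a median log2 fold change of −0.21. None of the 6 was called, and 4 were decreased at an unadjusted p under 0.05. Kif11, the kinesin that pushes spindle poles apart, measured 279, 277, 263, 241 and 188 CPM in controls and 194, 242, 227, 180.1 and 183 CPM in Dot1l-cKO, with a log2 fold change of −0.28 (adjusted p = 0.224). Tpx2, which activates Aurora A and nucleates microtubules, had −0.22 (adjusted p = 0.198), Nusap1, a microtubule bundler, −0.27 (0.196), and Kif2c, a microtubule depolymerase, −0.19 (0.206). Prc1, which bundles the central spindle, had −0.11 (0.626) and the chromokinesin gene Kif4 −0.15 (0.403), and the annotated copy Kif4-ps makes the count of Kif4 less certain.

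Cytokinesis genes had a median log2 fold change of −0.22 and none of the 7 was called in the unpaired fit, with 2, Kif23 and Anln, at an unadjusted p under 0.05. Kif20b, a kinesin of late cytokinesis, measured 66.7, 69.5, 64.6, 50.6 and 38.9 CPM in controls and 44.8, 58.5, 51.8, 31.3 and 35.4 CPM in Dot1l-cKO. Replicates 4 and 5 were lowest in each group, and each pair was lower in Dot1l-cKO. Its log2 fold change of −0.39 (SE 0.20) had an adjusted p of 0.297 unpaired and 0.0347 with the block. Ect2, the exchange factor that activates RhoA at the cleavage furrow, had a log2 fold change of −0.35 (adjusted p = 0.25, block 0.0552).

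Kif23 and Racgap1 form the centralspindlin complex that recruits ECT2, and their log2 fold changes were −0.20 (adjusted p = 0.18) and −0.19 (0.486). Anln, the scaffold of the contractile ring, had −0.23 (0.18), Kif20a −0.17 (0.286) and Cit, a kinase whose loss gives microcephaly, −0.22 (0.429). The 95% interval of Cit ran from −0.53 to 0.089. Its lowest value by far was Dot1l-cKO replicate 2, at 21.7 CPM against 28.7 to 39.0 CPM in the other Dot1l-cKO samples.

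Other genes of mitosis and of S phase were read beside the members. Of 89 other mitosis genes, 81 had a log2 fold change below 0 and the median was −0.19, with 2 called decreased. Those called were Lin9, a subunit of the DREAM and MuvB complex (−0.34, adjusted p = 0.037), and Mybl2, its activating partner B-MYB (−0.45, 0.0417). Of 54 DNA replication genes, which act in S phase, 52 were below 0 with a median of −0.20, and Rrm2, a subunit of ribonucleotide reductase, was called decreased (−0.54, 0.0444). Neither list had a gene called increased in edgeR or DESeq2, or increased at an unadjusted p under 0.05. DESeq2 called 9 of the other mitosis genes and 12 of the DNA replication genes decreased, beside 3 members and 705 of 17039 genes. Decreased at an unadjusted p under 0.05 were 22.5% and 33.3% of the lists, beside 28.6% of the members and 7.3% of all genes. Lower in all 5 pairs were 38.2% and 44.4%, beside 30.6% of the members and 11.6% of all genes. No difference between the lists was tested. With the replicate block, 7 of the other mitosis genes and 13 of the DNA replication genes were called decreased, beside 6 members and 2.91% of all genes. Sample means of both lists had control replicate 5 at or near the level of the Dot1l-cKO samples (−0.29 and −0.26).

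**Figure D5:**
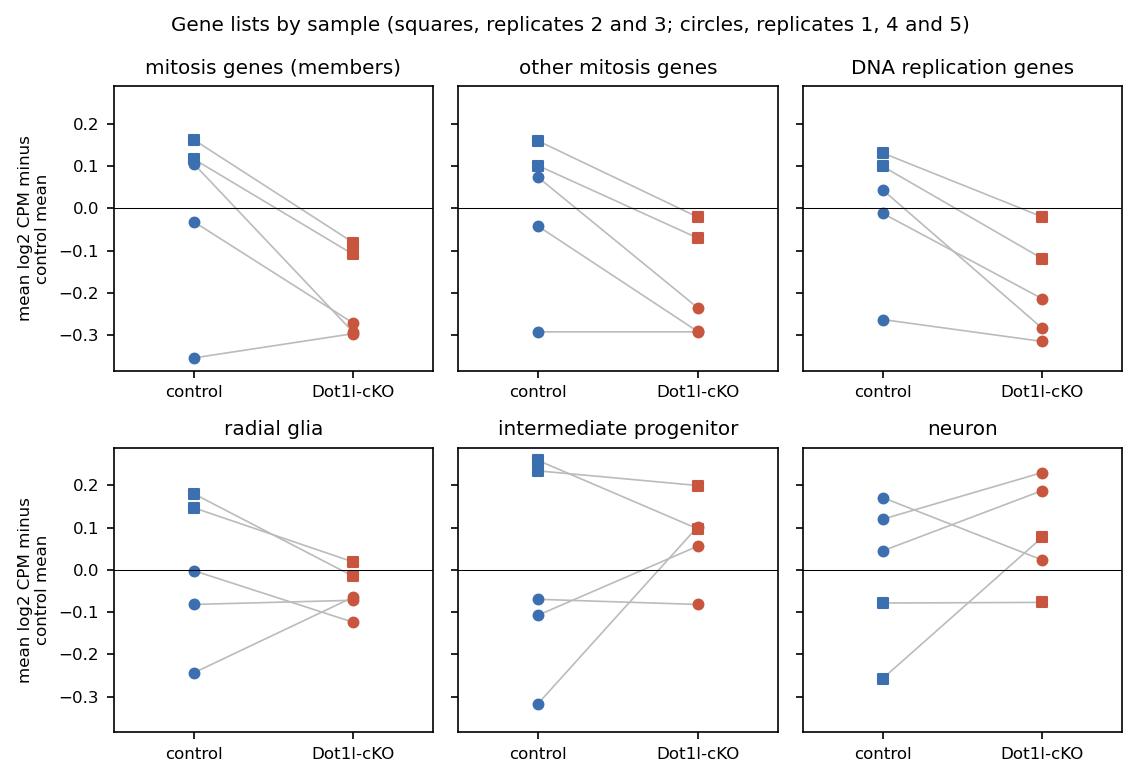
Mean log2 CPM of 6 gene lists as the difference from the control mean (y axis) in control (blue) and Dot1l-cKO (red) samples, with grey lines joining equal replicate numbers and squares for replicates 2 and 3. Mitosis, other mitosis and DNA replication genes are lower in Dot1l-cKO along most lines, the radial glial and intermediate progenitor markers are lower along the lines of replicates 1, 2 and 3, and the neuronal markers along that of replicate 5.

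Markers of the cells that divide and of other cells were read beside these values. Radial glial markers split, with Pax6 called decreased (−0.36, adjusted p = 0.0294) and Slc1a3 (0.43), Vim (0.53) and Fabp7 (0.62) called increased among 11 markers. The median log2 fold change of these 11 was −0.20 with 8 below 0, beside −0.23 for the members, and 3 were called decreased and 3 increased with the replicate block. None of the 7 intermediate progenitor markers was called by edgeR or DESeq2 or had an unadjusted p under 0.05, and their median log2 fold change was 0.076. Of 10 neuronal markers, Gap43 was called increased (0.46) and the median was 0.17. At an unadjusted p under 0.05 in edgeR, 3 of them were increased and 1 decreased, beside 13.3% and 7.3% of all genes. DESeq2 called 2 neuronal markers increased. In control replicate 5, the sample mean of the intermediate progenitor markers was −0.32 and that of the radial glial markers −0.24, in each list the lowest of all 10 samples.

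Ventral telencephalon and interneuron markers were lower in Dot1l-cKO in all 9 of the 10 that passed the filter, with a median log2 fold change of −1.77. Lhx6 was called in edgeR, and DESeq2 called 2 decreased. At an unadjusted p under 0.05 in edgeR, 7 of these 9 were decreased, beside 7.3% of all genes. Their summed level was 55.4 to 287 CPM in controls and 5.48 to 84.1 CPM in Dot1l-cKO, and Nkx2-1 did not pass the filter. Microglial markers were higher in all 9, with 8 called increased, and their summed level was 45.1 to 75.9 CPM in controls and 93.2 to 133 CPM in Dot1l-cKO. None of the endothelial (7), erythroid (8), meningeal (6) and choroid plexus (5) markers was called by edgeR or DESeq2, and none had an unadjusted p under 0.05. Their summed levels overlapped between groups, at 133 to 244 CPM in controls and 121 to 277 CPM in Dot1l-cKO for endothelium, and at 594 to 2531 and 904 to 2226 CPM for erythroid cells. For meninges they were 29.7 to 879 and 30.8 to 808 CPM, and for choroid plexus 1.68 to 611 and 3.48 to 145 CPM. The part of these cell types in the lower level of mitosis genes was not tested.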

How the data were processed

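Sequencing libraries were stranded and made from total RNA after removal of ribosomal RNA. Per the labels and methods, the authors trimmed reads with TrimGalore 0.2.8, mapped them to mm10 with TopHat2 2.0.9 and counted them per Ensembl gene with htseq-count 0.6.0 in reverse-stranded mode. The deposited counts are whole numbers and not normalised. The authors also deposited a normalised signal, the same counts divided by DESeq2 1.6.1 size factors, which was used only to read the number that opens each column name. No source used here explains this number, and it was used as a possible batch because the mitochondrial rRNA share went with it. Of 43629 identifiers, 42462 matched a GENCODE symbol, and those without held 0.268% of counts.

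Counts were tested with edgeR 4.0.16 in R 4.3.3 (filterByExpr, TMM, quasi-likelihood test, no covariate), with Benjamini-Hochberg adjustment over all 17039 genes tested and calls at an adjusted p under 0.05. The script was tested on simulated data. CPM are counts per 1e+06 of the TMM-scaled library, log2 CPM used a prior count of 2, and the SE is the fold change over the root of the F statistic. Intervals are at 95%, and counting error is all that read depth limits. Levels per kb used exon length from GENCODE on GRCm38. Alternatives were DESeq2 1.42.0, its size factors in edgeR, no filter, replicate number or opening number as a block, replicates 2 and 3 alone, the other samples alone, and each sample left out. Leaving out both samples numbered 5 was added after the data were seen. Replicate numbers come from the sample titles. The deviations of same-numbered samples from their group means correlated at 0.229, 0.349, 0.145, 0.597 and 0.131 for numbers 1 to 5. All were over 0.1, though the best match was the sample of the same number for 2 of 5, and the numbers were taken to pair the samples. This cut-off cannot tell pairing from the low or high mitochondrial rRNA share that same-numbered samples have in common. Controls were littermates per the methods, and p-values weigh the group difference against the spread between these samples. The main fit did not use litter, which the sample titles do not give. No pair of replicates was a duplicate (chi-square per degree of freedom at least 30.8).

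Members and lists were chosen with earlier results of these data known, so no p-value is given for a list. Named in full were called members, those called only with the block, the 3 smallest log2 fold changes, any positive one, and the 5 highest and 3 lowest per kb. Of the other lists, up to 5 called genes in each direction were named, with Dot1l as a check. Another gene of the rule is not reported here. Others were named after their values were seen. Promoter sequences are from RefSeq on GRCm38.p6.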

Additional observations from a re-analysis of the deposited data

Results flagged for a closer look

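In 6 of the 100 groups examined (49 members plus the whole list, in each genotype), 1 sample lay far from the other 4, by a rule that chance meets in about 1 of 20 groups. In all 6 that sample was the lowest control, replicate 5. The gap to the nearest other control was 0.715 of the control range for Bub1b (log2 CPM 7.09 against 7.40 to 7.53 in the other controls) and 0.902 for Nuf2 (5.46 against 6.06 to 6.12). It was 0.749 for Birc5 (5.16 against 5.55 to 5.68) and 0.73 for Kif2c (6.04 against 6.31 to 6.41). Tpx2 gave 0.748 (7.32 against 7.69 to 7.81) and Ncapd2 0.778 (8.03 against 8.24 to 8.30). These genes rise and fall together across samples, so the 6 are not separate events.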

How the results depend on the processing

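The median log2 fold change of the members stayed below 0 in every alternative run, from −0.30 to −0.19, and of 882 member values recomputed 813 kept their direction and side of the threshold. Counts of calls moved more. Decreased members were 2 with all samples and numbered 6 with the replicate block, 9 with the opening number of the column names as a block, 10 with both samples numbered 5 left out, and 0 within replicates 2 and 3 and 0 within the other samples, whose names open with 3 different numbers. Leaving out 1 sample at a time gave 0 to 12 decreased members, 750 to 1357 genes called and 126 to 343 called decreased, the highest of each without control replicate 5. Genes called numbered 1212, and 2004 with DESeq2, which also called 1 member increased, 1 within replicates 2 and 3, and 745 within the other samples. Decreased genes numbered 246, and 705 with DESeq2, 597 with the opening number as a block, 495 with the replicate block, 0 within replicates 2 and 3 and 155 within the others, where fewer samples were tested. The replicate block, used because the numbers were taken to pair the samples, changed the calls of Wee1, Cdc25b, Bub1, Kif20b, Smc2 and Smc4 and no other member's. The log2 fold change of Ccnb2, Cdc25c, Bub3, Cdc20 and Prc1 turned above 0 in some alternative, and the cause was not tested. Within replicates 2 and 3 it was 0.0077 for Cdc25c, 0.079 for Bub3 and 0.0033 for Prc1. Within the other samples it was 0.027 for Cdc20, and with both samples numbered 5 left out 0.0067 for Bub3. With 1 sample left out, values ran from −0.088 to 0.0015 for Ccnb2, −0.086 to 0.0499 for Cdc25c, −0.048 to 0.033 for Bub3 and −0.083 to 0.026 for Cdc20. With 5 samples per group and a median SE of 0.12, changes as small as the members' median were seldom resolved gene by gene.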

Other observations

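The lowest Dot1l-cKO sample differed between members. It was replicate 1 for 16 members, replicate 2 for 8, replicate 3 for 1, replicate 4 for 10 and replicate 5 for 14. The 8 members lowest in Dot1l-cKO replicate 2 were Plk1, Wee1, Foxm1, Cdca8, Anln, Cit, Ncapd2 and Mki67, which include both members called decreased. Dot1l itself was also lowest in that sample, at 20.1 CPM against 39.6 to 51.7 CPM in the other Dot1l-cKO samples. Over all members, however, replicate 2 had the highest mean deviation of the Dot1l-cKO samples, −0.081 against −0.30 to −0.11. A relation to the Dot1l level was not tested. Condensin and kinetochore members such as Ncapg (43.4 CPM in replicate 4, 85.0 CPM in replicate 2) and Spc25 (33.9 CPM in replicate 5, 52.4 CPM in replicate 2) were lower in replicates 4 and 5 than in replicate 2. Controls 2, 4 and 5 had the same order, at 100, 68.7 and 56.9 CPM for Ncapg and 58.0, 51.8 and 37.0 CPM for Spc25. Ncapd2 and Mki67 went the other way, at 189 and 363 CPM in Dot1l-cKO replicate 2 against 236 and 515 CPM in replicate 4. These members were picked after their values were seen, and no test was made.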
